A study of Mus musculus with 7 samples.

Results

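The genes described here carry the growth hormone, insulin-like growth factor 1 (IGF1) and insulin signals of the liver: the hormone receptor genes Ghr and Insr, the hormone gene Igf1, the carrier gene Igfals, the binding protein genes Igfbp1, Igfbp2, Igfbp3 and Igfbp4, and the receptor substrate genes Irs1 and Irs2. Members were taken as all probe sets whose platform annotation gives 1 of these 10 symbols alone, which found 23 probe sets for 10 of 18194 named genes. A probe set is a group of short oligonucleotides on the array that reads 1 transcript or a few related ones. Every liver came from a male pup of the C57BL/6J strain, aged day of life 1, and was hybridised to its own Affymetrix Mouse Genome 430 2.0 array. The groups were 4 glycerol kinase knockout livers and 3 livers of wild type littermates of the same age. Glycerol kinase phosphorylates glycerol, and the submitters chose this age as one at which knockout pups show no signs yet. How the knockout allele was made and which pups shared a litter are not given in the sources used here, and the targeted transcript was not analysed here, so it did not check the labels.

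Growth hormone from the pituitary binds its receptor on hepatocytes, and the kinase JAK2 and the transcription factor STAT5 carry the signal to genes such as Igf1 and Igfals. Circulating IGF1 travels mostly in a complex with IGFBP3 and the acid-labile subunit that Igfals encodes. The other binding proteins form smaller complexes. Insulin acts through its own receptor, the substrates IRS1 and IRS2, PI3 kinase and AKT, which keeps the factor FOXO1 out of the nucleus, and Igfbp1 and Irs2 are known FOXO1 targets that insulin represses. The growth hormone branch of this system matures after birth, when IGF2, the main fetal ligand, gives way to IGF1.

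Upstream sequences were available for 9 of the 10 genes, in 13 windows of 250 bases ending at an annotated start site (RefSeq, build GRCm38.p6). No window was held for Insr. The windows of Igf1, Igfals and Igfbp1 are printed because Igf1 and Igfals had the largest called changes and Igfbp1 is the textbook insulin-repressed gene. Capitals mark matches, on either strand, to TTCNNNGAA (the spaced palindrome that STAT factors bind), TGTTTAC (a forkhead motif), TNTTTTG (the insulin response sequence) or TATAAA (the TATA box).
Igf1, chr10:87860861-87861110, plus strand: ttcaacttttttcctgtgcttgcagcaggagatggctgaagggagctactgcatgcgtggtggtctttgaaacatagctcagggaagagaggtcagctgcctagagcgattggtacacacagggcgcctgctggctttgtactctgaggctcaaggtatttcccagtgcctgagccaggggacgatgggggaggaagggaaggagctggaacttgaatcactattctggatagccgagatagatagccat
Igfals, chr17:24877981-24878230, plus strand, the second of its 3 annotated starts: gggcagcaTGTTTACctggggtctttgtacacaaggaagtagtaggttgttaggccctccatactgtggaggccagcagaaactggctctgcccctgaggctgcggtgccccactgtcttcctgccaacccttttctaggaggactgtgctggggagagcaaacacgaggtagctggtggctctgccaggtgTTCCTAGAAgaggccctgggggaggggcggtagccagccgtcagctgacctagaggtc
Igfbp1, chr11:7197537-7197786, plus strand: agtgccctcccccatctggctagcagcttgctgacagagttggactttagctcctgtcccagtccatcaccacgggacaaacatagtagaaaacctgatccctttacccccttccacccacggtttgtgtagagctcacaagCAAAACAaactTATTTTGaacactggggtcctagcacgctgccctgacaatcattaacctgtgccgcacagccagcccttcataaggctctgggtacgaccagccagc

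The Igfbp1 window held CAAAACA and TATTTTG, with first bases 108 and 97 bases before the start, which are the 2 arms of its insulin response element. TNTTTTG was in 3 of the 13 member windows, those of Igfbp1, Irs1 and Irs2, and in 16.9% of 32851 windows searched. The printed Igfals window held TTCCTAGAA with its first base 58 bases before the start and TGTTTAC farther upstream, and the window of another Igfals start held TTCTCAGAA. TTCNNNGAA was thus in 2 of 13 member windows, both of Igfals, against 7.02% of all windows, and TGTTTAC was in 1 against 3.17%. The TATA box letters were found for Igfbp4 and for 1 start of Ghr, against 12.4% of all windows. The Igf1 window held none of the 4 motifs. These matches describe letters in the windows and carry no evidence of binding.

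Values are the deposited intensities, which the submitters scaled so that the trimmed mean of every array was 500.003. Knockout 3 stood apart from the other 6 arrays. It carried pancreas transcripts, with intensities of 616 for Ins2 (insulin), 666 for Cela2a (an elastase) and 498 for Cpa1 (a carboxypeptidase), against at most 75.6, 50.5 and 17.8 on any other array, while Gcg (glucagon) was at 4.5 there. It also had the highest 3' to 5' ratio of every RNA control, for example 11.1 for the transferrin receptor against 7.22 to 7.32 in the other knockout and 7.91 to 8.24 in the wild type arrays. Member results are therefore given without knockout 3 as well. Hepatocyte markers defined the tissue on every array, with a summed intensity of 121160 to 171983 in knockout and 129727 to 137830 in wild type over 5 of 6 listed markers. Markers of red cell precursors, which a newborn liver holds, were lower in knockout by their sum over 6 of 8 listed markers. The sums were 43693 to 47982 against 55390 to 61762 in wild type. With all 7 arrays 2 of these 6, Rhag and Slc4a1, passed the test. The log2 changes of the 6 were uneven, from -0.74 for Epb42 to -0.025 for Klf1 (limma's adjusted p = 0.940 for Klf1). The part of these markers in the results below was not tested. In whole liver, fewer cells of a type and less RNA per cell cannot be told apart.

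Transcripts of Igf1, Igfals and Insr were higher in knockout liver by called probe sets, and no tested member probe set was lower past the threshold. The analysis was repeated under 15 alternatives, which include each array left out in turn. Both Igf1 calls held in all 15, the Igfals call in 9 and the Insr call in 4. Of the 23 member probe sets 21 were bright enough to be tested, and 4 of these, 2 of Igf1 and 1 each of Igfals and Insr, passed limma's adjusted p of 0.05, all upward. That is 19.0% of the tested member probe sets, against 4.24% of all 22518 tested probe sets, with 2.35% called higher and 1.89% called lower. These background calls were 529 higher and 426 lower, or 541 and 218 with arrays scaled to equal medians. An unadjusted p under 0.05 was found for 13 of the 21, against 21.7% of all tested probe sets. Downward 0 passed, and 1 of the 13, that of Igfbp1, was lower in knockout. The groups did not overlap in 11 of the 21, 10 higher and 1 lower in knockout, against 21.1% of all tested probe sets. The median log2 change of the 21 was 0.47, against -0.035 over all tested probe sets. Without knockout 3 the count was also 4, made up of 3 Igf1 probe sets and Igfals. Several of the 21 probe sets read the same gene, so these shares do not count separate genes. By the brightest probe set of each of the 10 genes 7 were higher and 3 lower, with a median log2 change of 0.40. Members were also chosen with earlier results of these data known.

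**Figure D1:**
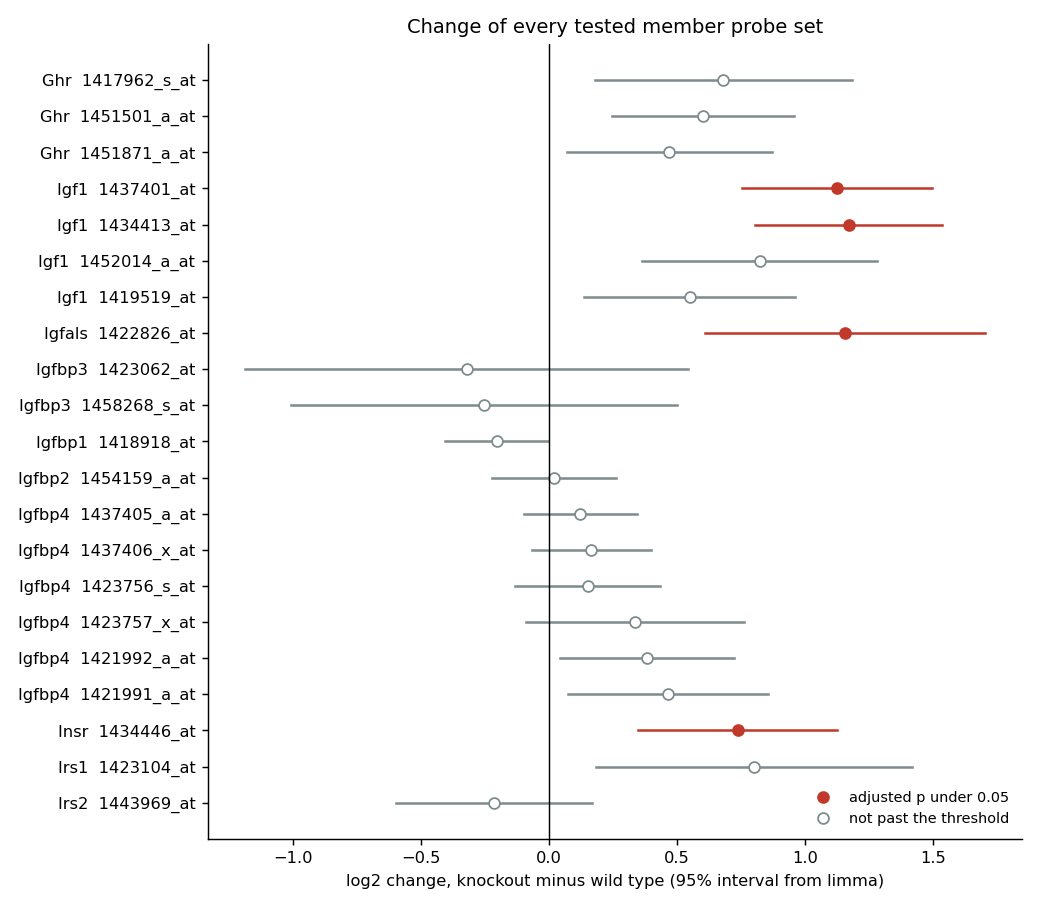
The log2 change, knockout minus wild type, of the 21 tested member probe sets, with 95% intervals from limma; filled red points passed an adjusted p of 0.05. The intervals of Igf1, Igfals, Insr, Ghr, Irs1 and Igfbp1 exclude 0, that of Igfbp1 barely. Those of Igfbp2, Igfbp3 and Irs2 span it, and those of Igfbp4 differ by probe set.

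Igf1, the hormone itself, rose on 2 of its 4 probe sets, and these were the only member probe sets that passed under all 15 alternatives. Its brightest probe set, 1437401_at, read 1585, 1292, 1895 and 1328 in knockout livers 1 to 4, against 716, 626 and 708 in wild type livers 1 to 3. Every knockout value was above every wild type value, and the lowest knockout liver was still far above the highest wild type liver. The mean was 1525 ± 279 in knockout and 684 ± 49.6 in wild type (SD, n = 4 and 3), a log2 change of 1.12 ± 0.17 (SE; adjusted p = 0.0088). Probe set 1434413_at gave 1519.7, 1029, 1197 and 1135 in knockout against 512, 509 and 566 in wild type. Its groups did not overlap either, and its log2 change was 1.17 ± 0.16 (adjusted p = 0.0066), a 2.25-fold higher level. Over the 15 alternatives, which include each array left out in turn, the adjusted p of these 2 probe sets ran from 0.0063 to 0.0493, and without knockout 3 their log2 changes were 1.02 and 1.17.

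The other Igf1 probe sets were also higher in knockout, with smaller log2 changes that did not pass. Probe set 1452014_a_at read 1375, 1084, 808 and 889 in knockout against 549.6, 489 and 684 in wild type, a log2 change of 0.82 ± 0.21 (adjusted p = 0.0535). It missed the threshold by little and passed in 4 of 15 alternatives, one of them without knockout 3 (adjusted p = 0.0372). Probe set 1419519_at read 431, 343, 301 and 379.8 in knockout against 218, 221 and 292 in wild type, a log2 change of 0.55 ± 0.19 (adjusted p = 0.122), or 0.63 without knockout 3. The lowest knockout liver lay just above the highest wild type liver here. The 1437401_at change exceeded that of 1419519_at by 0.58 on the log2 scale (exact permutation p = 0.0571, two-sided, 0.310 adjusted over 13 comparisons of probe sets within genes). The smallest p that 35 splits of the arrays allow is 0.0286, so 7 arrays leave little room to separate the sizes of the 4 Igf1 changes. Knockout 1 was the highest of the 7 arrays for 3 of the 4 probe sets and knockout 3 for the other.

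**Figure D2:**
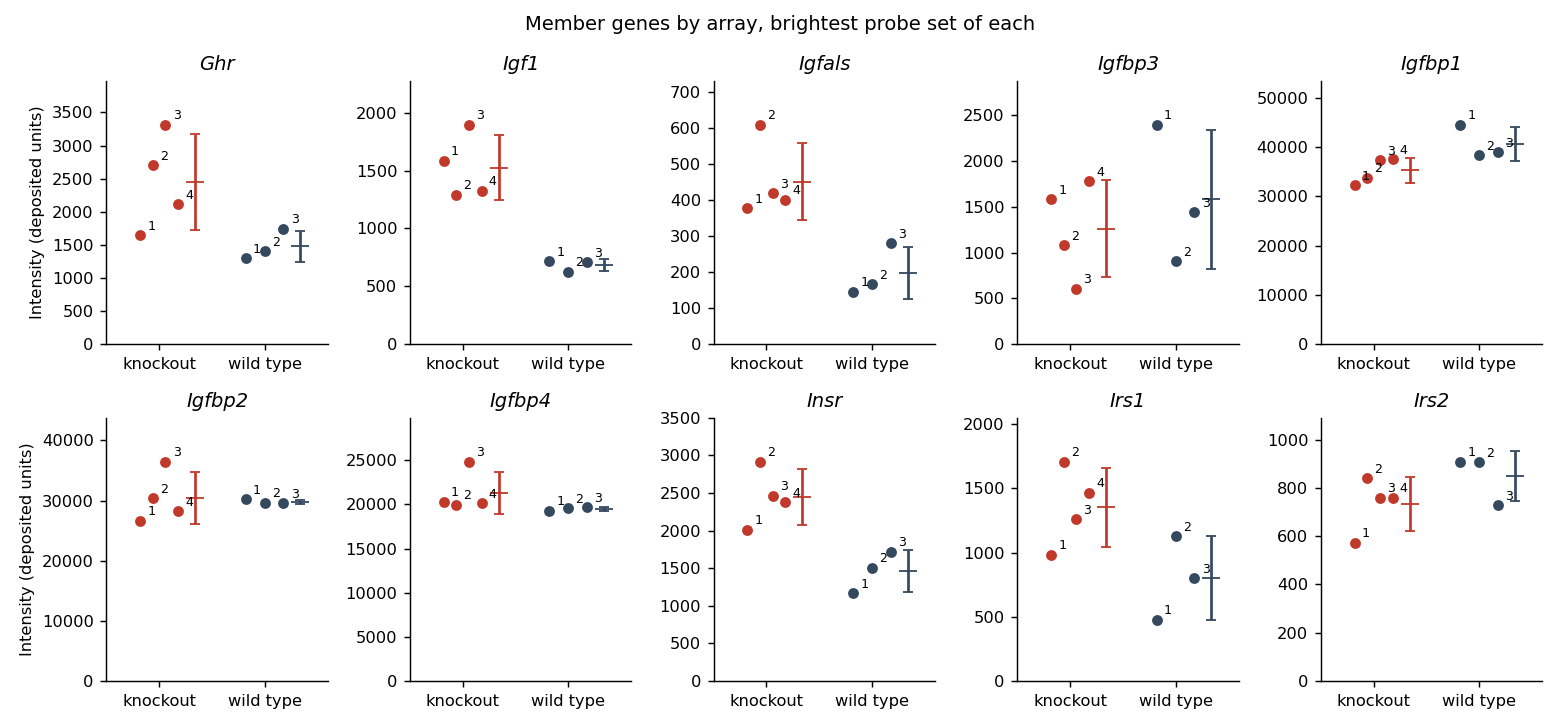
Intensity of the brightest probe set of each member gene in 4 knockout (red, left) and 3 wild type arrays (dark, right), with replicate numbers beside the points and the mean with SD at the side of each group. Knockout and wild type points separate for Igf1, Igfals and Insr, and by a narrow margin for Igfbp1 and Igfbp4. They overlap for Ghr, Igfbp2, Igfbp3, Irs1 and Irs2.

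Igfals, which encodes the acid-labile subunit that holds IGF1 in the circulation, rose beside Igf1. Its only probe set read 378, 608, 418 and 400.1 in knockout against 146, 166 and 280.2 in wild type. The groups did not overlap, although wild type 3 stood well above the other wild type livers. The mean was 451 ± 106 in knockout and 198 ± 72.3 in wild type, a log2 change of 1.15 ± 0.25 (adjusted p = 0.0336), or 2.23-fold. The call was lost without wild type 1 (adjusted p = 0.108), wild type 2 (0.119), knockout 2 (0.0671) or knockout 4 (0.0666). It held without knockout 1 (0.0376), knockout 3 (0.0455) or wild type 3 (0.0429), and the log2 change stayed between 0.98 and 1.42 over the 7 runs.

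Ghr, the growth hormone receptor, had a higher mean in knockout on all 3 of its probe sets, and none passed with all 7 arrays. The brightest, 1417962_s_at, read 1650.4, 2707, 3313 and 2118 in knockout against 1298, 1406 and 1746 in wild type. Knockout 1 fell among the wild type livers, so the groups overlapped. The log2 change was 0.68 ± 0.23 (adjusted p = 0.118), and without knockout 1, the lowest knockout value, it was 0.85 with an adjusted p of 0.0419. Probe set 1451501_a_at read 1235, 1441, 1481 and 1125 in knockout against 1002, 805 and 786 in wild type, and 1451871_a_at read 303, 432, 326 and 330.0 against 214, 273 and 249.6. Both separated the groups, at log2 changes of 0.60 ± 0.16 (adjusted p = 0.0635) and 0.47 ± 0.18 (adjusted p = 0.167). Neither passed in any of the 15 alternatives. Without knockout 3 the 3 log2 changes were 0.52, 0.54 and 0.49, and none passed.

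None of the binding protein genes passed the test. Igfbp3 encodes the partner of IGF1 in the large circulating complex and in rat liver is made by cells other than hepatocytes. Its probe set 1423062_at read 1583, 1080, 605 and 1779 in knockout against 2393, 904 and 1441 in wild type. The groups overlapped widely, from knockout 3 at the bottom to wild type 1 at the top. The log2 change was -0.32 ± 0.39 (adjusted p = 0.681), with a 95% interval from -1.19 to 0.54. The second probe set, 1458268_s_at, at -0.25 ± 0.34, placed the 7 arrays in the same order from highest to lowest, so the spread was shared by both readings of the gene. Without wild type 1 the log2 changes were 0.030 and 0.084, and without knockout 3 they were -0.013 and -0.015. The summed intensity of 7 liver endothelium markers was also lowest in knockout 3, at 8763. It was 10610 to 13997 in the other knockout and 13306 to 16191 in the wild type arrays, where wild type 1 was the lowest. The sum of 7 stellate cell or mesenchyme markers was lowest in knockout 3 too, at 16770. It was 19423 to 26081 in the other knockout and 19128 to 23816 in the wild type arrays, where wild type 1 was the highest. The sum of Kupffer cell or macrophage markers, at 18987 in knockout 3, was not lowest there. The part of these cell types in the Igfbp3 spread was not tested.

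Igfbp1, the insulin-repressed binding protein whose promoter is printed above, read 32291, 33781, 37329 and 37477 in knockout against 44461, 38317 and 38957 in wild type. All knockout values were under all wild type values, by a narrow margin between knockout 4 and wild type 2. The log2 change was -0.20 ± 0.091 (adjusted p = 0.224), a level 0.868 times that of wild type, and it did not pass in any of 15 alternatives. Without knockout 3 it was -0.23. The highest intensity of any probe set on an array ran from 37477 to 48602, so this probe set sat at the top of the measured range, where a change may be compressed. Whether that was so was not tested.

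Igfbp2, a binding protein made in quantity by the fetal liver, read 26649, 30406, 36483 and 28193 in knockout against 30227, 29645 and 29599 in wild type. Its wild type values lay within the knockout range, and the log2 change was 0.019 ± 0.11 (adjusted p = 0.944), with a 95% interval from -0.22 to 0.26. Without knockout 3, the highest array, it was -0.072. Igfbp4, which binds IGF1 and holds it from its receptor, was read by 6 probe sets, and none passed. The brightest, 1437405_a_at, read 20319.9, 19974, 24854 and 20134 in knockout against 19284, 19598 and 19667 in wild type. Knockout 3 was the highest of the 7 arrays for all 6 probe sets, while the other knockout livers lay close to wild type on the brightest ones. The log2 changes ran from 0.12 ± 0.10 for the brightest (adjusted p = 0.518) to 0.47 ± 0.18 for the dimmest, 1421991_a_at (adjusted p = 0.160). Without knockout 3 these became 0.046 and 0.34, and all 6 lay between 0.037 and 0.34. With all 7 arrays the dimmer probe sets had the larger changes, with 1423757_x_at at 0.34 and 1421992_a_at at 0.38. Igfbp2 and the brightest Igfbp4 probe sets also read high on the scale, where a change may be compressed. Whether that was so was not tested here either.

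**Figure D3:**
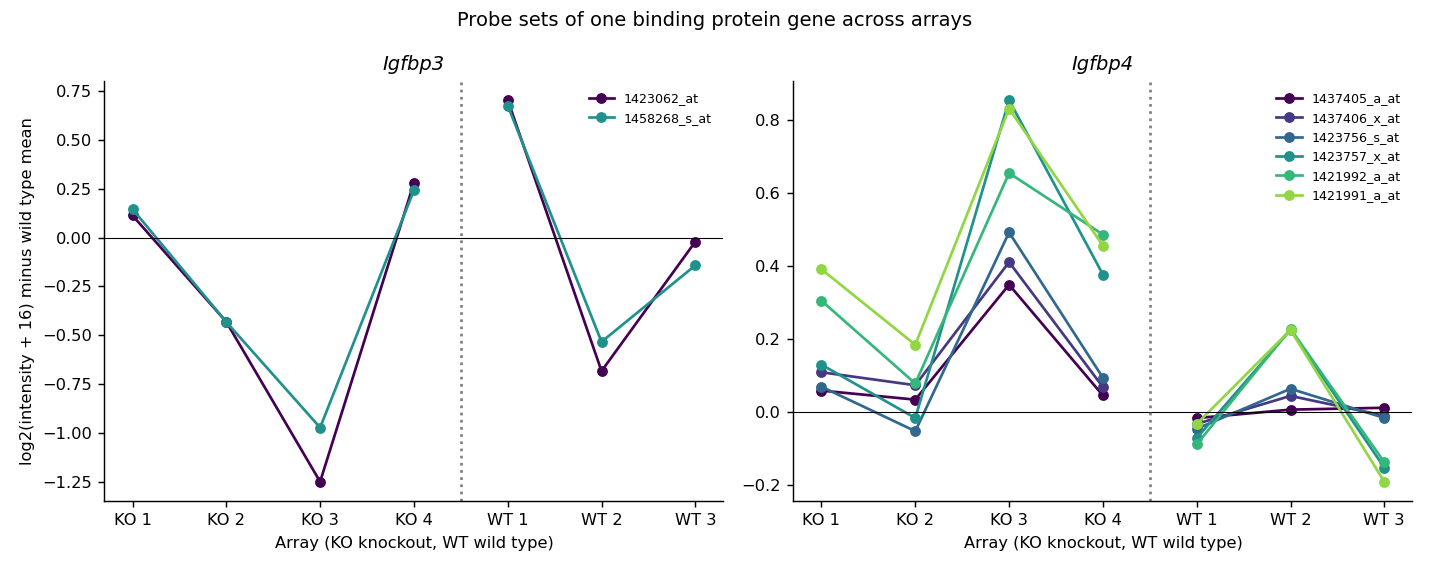
Each probe set of Igfbp3 (left) and Igfbp4 (right) by array, as log2(intensity + 16) minus its mean over wild type; lines only join the points of 1 probe set. Both Igfbp3 probe sets order the arrays alike, and all 6 Igfbp4 probe sets peak in knockout 3.

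Insr, the insulin receptor, rose by its brightest probe set. Probe set 1434446_at read 2012, 2918, 2466 and 2377 in knockout against 1171, 1507 and 1721 in wild type. The groups did not overlap. The mean was 2443 ± 372 in knockout and 1466 ± 277 in wild type, a log2 change of 0.74 ± 0.17 (adjusted p = 0.0453), or 1.67-fold. This call was marginal. It failed without wild type 1 (adjusted p = 0.139), wild type 2 (0.125), wild type 3 (0.102), knockout 2 (0.0892), knockout 3 (0.0654) or knockout 4 (0.0945), and held without knockout 1 (0.0341). The log2 change stayed between 0.58 and 0.86 in those runs.

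The 2 dim Insr probe sets were under the filter and did not show the rise. Probe set 1450225_at read 109.6, 107, 101 and 57.3 in knockout against 78.8, 98.5 and 66.8 in wild type, with overlapping groups (exact permutation p = 0.543, two-sided). Probe set 1421380_at read 16.9, 13.4, 5.7 and 14.7 in knockout against 67.5, 39.7 and 37.3 in wild type, the opposite direction with no overlap (exact permutation p = 0.0286, the smallest possible). The change of the bright probe set exceeded that of 1421380_at by 1.88 on the log2 scale (exact permutation p = 0.0286, 0.310 adjusted over the 13 comparisons). The part of the low intensities of 1421380_at in this difference was not tested.

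**Figure D4:**
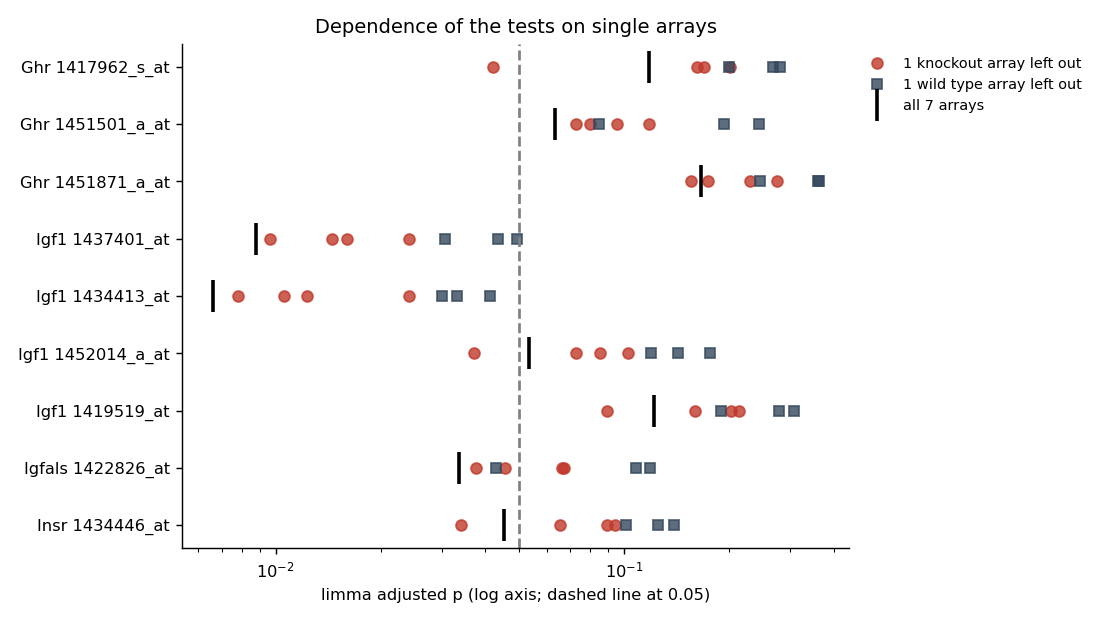
Limma's adjusted p (log axis) for the Ghr and Igf1 probe sets and the called Igfals and Insr probe sets, with all 7 arrays (black bar) and with 1 knockout (red circle) or 1 wild type array (dark square) left out. Only Igf1 1437401_at and 1434413_at stay left of the dashed line at 0.05 in every run.

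The substrates that pass the insulin signal on showed no call. Irs1 read 985, 1709.7, 1261 and 1468 in knockout against 478, 1127 and 800.5 in wild type. Knockout 1 lay under wild type 2, so the groups overlapped, and the log2 change was 0.80 ± 0.28 (adjusted p = 0.131). It became 0.48 without wild type 1, the lowest array, and 0.83 without knockout 3. Irs2, the other main hepatic substrate and a FOXO1 target, read 573, 839.6, 760.5 and 759 in knockout against 909.5, 907 and 729.7 in wild type. Its groups overlapped through wild type 3, and the log2 change was -0.21 ± 0.17 (adjusted p = 0.511), with a 95% interval from -0.60 to 0.17. It was -0.10 without knockout 1, the lowest array, and -0.24 without knockout 3.

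Igf1, Igfals and Insr were set beside all other tested genes by their pattern over the 7 arrays, as a description only, since every gene that separates the groups tends to correlate with them. The genes most like Igf1 1434413_at were Igfbp7 (Pearson r = 0.996), Txlng (0.991) and Hmg20b (0.990). None of these passed the test, and the log2 change of Igfbp7 was 0.35 (limma's adjusted p = 0.120). Those most like Igfals were Mmaa (r = 0.990), Slc39a4 (0.977) and Cecr2 (0.974). For Insr they were Cd99l2 (r = 0.987), the cytochrome P450 gene Cyp2j5 (0.987) and Usp40 (0.983). Within the members, knockout 2 was the highest and wild type 1 the lowest array for Igfals, Insr 1434446_at and Irs1 alike, whereas Igf1 peaked in knockout 1 or 3.

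The rest of the pathways was read from 6 lists of other genes, by the brightest tested probe set of each gene. Of 66 tested genes 2 rose and 2 fell, or 6.06% against 4.24% of all tested probe sets, and 33 had a higher and 33 a lower mean in knockout. The median log2 change of the 66 was -0.0011, against -0.035 over all tested probe sets. The counts of list genes at an unadjusted p under 0.05 given below stand against 21.7% of all tested probe sets.

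In the list of growth hormone receptor signalling 1 of 11 tested genes rose and 0 fell, with 1 more, Socs3, at an unadjusted p under 0.05. The one that rose was Sh2b1, an adaptor that binds JAK2, which read 1115, 1099.7, 980.3 and 1084 in knockout against 692, 775 and 653 in wild type, a log2 change of 0.59 ± 0.14 (adjusted p = 0.0447). Its groups did not overlap, and among runs without 1 array it passed without knockout 3 (adjusted p = 0.0419) and failed in the other 6 (up to 0.197). Socs3, a feedback inhibitor of cytokine receptors, was at -1.003 ± 0.37 (adjusted p = 0.153) with values of 907, 620.3, 682 and 231 in knockout against 1269, 1116 and 975 in wild type. Without knockout 4, the lowest array, it was -0.61, and without knockout 3 it was -1.11. Transcripts of Jak2 at -0.25 and Stat5b at 0.18, the core of the signal, and of the feedback genes Socs2 at 0.82 and Cish at -0.30, did not pass.

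Among other IGF ligands, receptors, binding proteins and proteases 0 of 7 tested genes passed with limma, and 2 had an unadjusted p under 0.05. Igf2r, the receptor that clears IGF2, came closest at 0.94 ± 0.27 (adjusted p = 0.0779), with 895, 2126, 1864 and 1297 in knockout against 848, 751 and 684 in wild type. Knockout 1 lay just above the highest wild type liver, and without it the log2 change was 1.17 with an adjusted p of 0.0167, while without knockout 3 it was 0.82. Igf2, the fetal ligand, was at 0.015 ± 0.16 by its brightest probe set and at 0.73 ± 0.28 by its other tested one (adjusted p = 0.160). That brightest probe set read 19934 to 33706 over the 7 arrays, high on the scale, where a change may be compressed, which was not tested. The IGF1 receptor gene Igf1r was at -0.22 ± 0.17. Of the 10 listed growth hormone-responsive liver genes 7 were tested, and 0 of these 7 passed with limma. Of the 7, 1 had an unadjusted p under 0.05, Egfr at -0.64 ± 0.28 (adjusted p = 0.214). Without knockout 1 it was -0.42 and without knockout 3 -0.86, and the other tested Egfr probe sets ran from -0.42 to 0.072. Fgf21, on the same list, was under the filter and not tested. It read 50.7 to 119.5 in knockout against 7.8 to 16.8 in wild type, close to the low end of the scale.

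In the list of insulin receptor adaptors and modifiers 1 of 10 tested genes rose and 0 fell, with 3 higher and 0 lower at an unadjusted p under 0.05. Ptprf, a receptor phosphatase that acts on the insulin receptor, read 2644, 3220.1, 3435 and 3113 in knockout against 1658, 1934 and 2020.1 in wild type. No knockout value overlapped wild type, and the log2 change was 0.72 ± 0.14 (adjusted p = 0.0231), with its other 2 tested probe sets at 0.96 and 1.19 and also past the threshold. Without 1 array it passed without knockout 1 (0.0157) or knockout 3 (0.0330) and failed in the other 5 runs (up to 0.0845). Ide, the insulin-degrading enzyme, just missed by its brightest probe set at 0.65 ± 0.16 (adjusted p = 0.0524), while 3 of its other probe sets passed, at 0.69 to 0.92, and 1 was at -0.31.

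Of 21 tested genes of PI3 kinase, AKT and mTOR 1 fell and 0 rose, with 5 lower and 3 higher at an unadjusted p under 0.05. Eif4ebp1, a repressor of translation that mTOR switches off, read 2619.9, 3077, 2625 and 3003 in knockout against 4387, 3584 and 4442 in wild type. The groups did not overlap, and the log2 change was -0.54 ± 0.13 (adjusted p = 0.0484). However, the call failed in all 7 runs without 1 array (adjusted p from 0.0671 to 0.211). The other tested Eif4ebp1 probe set was at -0.26 and did not pass (adjusted p = 0.318), and its groups overlapped. Mtor itself was at 0.61 ± 0.16 (adjusted p = 0.0617), with another tested probe set at -0.083, and without knockout 3 it was 0.56. Of 12 FOXO factors and insulin-responsive genes 1 fell and 0 rose, with 4 lower and 2 higher at an unadjusted p under 0.05. The one was Sesn1, a sestrin that responds to FOXO factors and to p53, with 1539, 1528, 1288 and 2237 in knockout against 4910.1, 2345 and 4397 in wild type. Wild type 2 lay close to knockout 4. The log2 change was -1.19 ± 0.26 (adjusted p = 0.0380), the other 3 tested probe sets were lower too, and without 1 array it passed without wild type 2 (0.0150) or knockout 4 (0.0435) and failed in the other 5 runs (up to 0.163). Foxa2, a hepatocyte factor that insulin regulates, was at 1.03 ± 0.35 (adjusted p = 0.125), which became 0.60 without wild type 1 and 0.95 without knockout 3. Transcripts of Pck1 and G6pc, the gluconeogenic genes that insulin represses, were at -0.33 and -0.41 and did not pass.

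**Figure D5:**
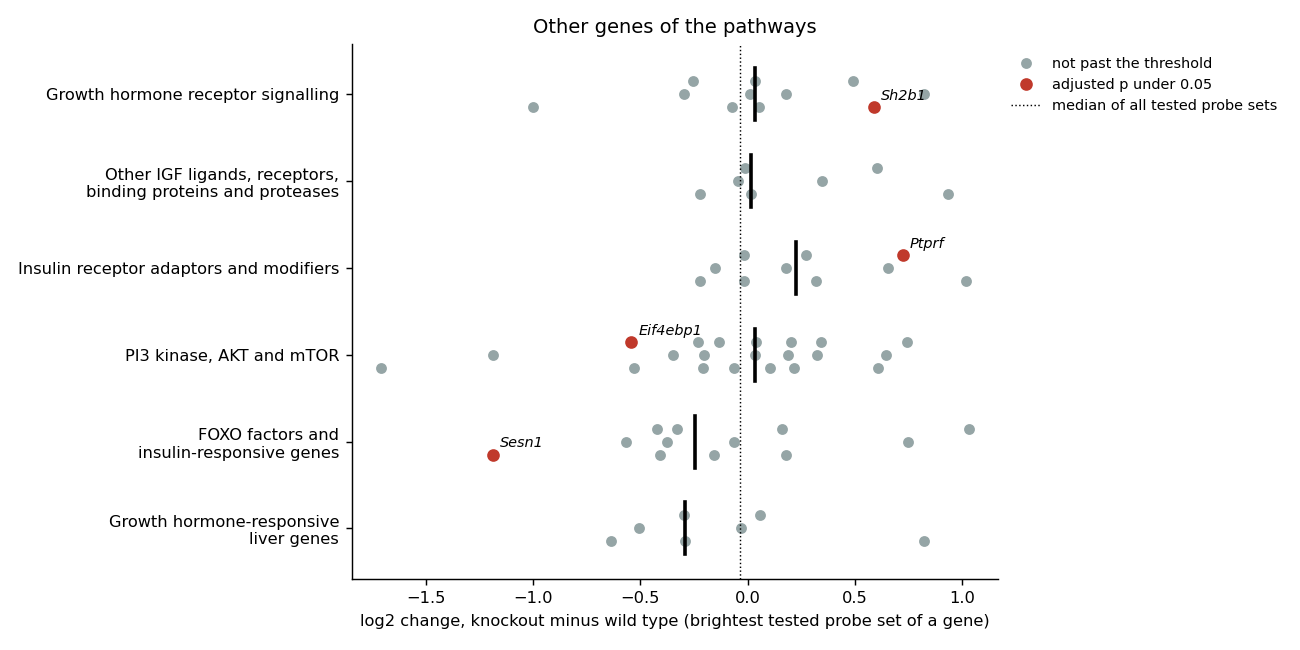
The log2 change, knockout minus wild type, of each tested gene in 6 lists around the members (grey, or red where adjusted p was under 0.05), with the list median as a black bar and the median of all tested probe sets as a dotted line. Each gene is shown by its brightest tested probe set, and by these only Sh2b1, Ptprf, Eif4ebp1 and Sesn1 of 66 genes passed.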

How the data were processed

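RNA of each liver was extracted separately, per the labels' protocols, so arrays stand for separate animals. The deposited values are intensities on a linear scale. They were made with GCOS, per the submitters' processing notes; how probes were summarised per probe set is not given in the sources used. Intensities were transformed to log2(value + 16), without further scaling because array medians lay within 0.2. After 64 control probe sets of 45101 were left out, the 22518 with a mean above the median were compared with limma 3.58.1 in R 4.3.3 (eBayes with a trend and no covariates). A call needed a p under 0.05 after Benjamini-Hochberg adjustment over all of them. Fold changes on this scale are understated for dim probe sets. Of all probe sets, 34958 had 1 symbol in the platform annotation, 932 had several and 9211 had none. Members and lists were chosen with earlier results of these data known. Named from each list were up to 4 called genes per direction and the uncalled gene of smallest p, and a few other genes were added with their values known. Steps were tested on simulated data. Alternatives covered the offset, scaling, filter, variance model, each array left out and the replicate block. The number of arrays limits the precision. Promoter windows came from a RefSeq table, and plots from matplotlib 3.10.9.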

Additional observations from a re-analysis of the deposited data

Results flagged for a closer look

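Chance flags about 5% of groups of 4, and 27 such groups of knockout arrays were checked, for 23 member and 4 pancreas probe sets. In 6 of them, among these all 4 pancreas groups, 1 array lay far from the other 3. The groups are not independent, so 6 of 27 is no test against that share. Knockout 3 was far above the other knockout arrays for Igfbp4 1437405_a_at, at 24854.4, and for 1437406_x_at, at 22998. It was likewise far above them for the pancreas genes Cela2a (666), Cpa1 (497.9) and Ins2 (616.1). Knockout 1 was far above the other knockout arrays for Gcg, at 22.1, which is close to the low end of the scale and near the 16.3 of wild type 2. The part of the pancreas transcripts in the Igfbp4 values was not tested.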

How the results depend on the processing

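Of the 21 tested member probe sets, 18 kept their direction under all 15 alternatives. The exceptions, none of them called, were Igfbp3 and Igfbp2. Without 1 array the log2 change of Igfbp3 1423062_at ran from -0.66 to 0.030, with the upper end without wild type 1, that of Igfbp3 1458268_s_at from -0.52 to 0.084, again without wild type 1, and that of Igfbp2 from -0.072, without knockout 3, to 0.079. The count of called member probe sets fell to 2 with no filter and with the replicate block, that of all called probe sets to 473 and 351, and that of list genes to 2 and 2. With eBayes without a trend 584 probe sets and 1 list gene were called. Without 1 array, 127 to 1006 probe sets were called, 2 to 5 of the members and 0 to 3 of the list genes, where 0 came without wild type 1, wild type 3 or knockout 2, with 19, 16 and 19 list genes at an unadjusted limma p under 0.05. Igfals passed in 9 of 15 alternatives and Insr in 4. Replicate numbers are only numbers here: deviations of same-numbered arrays correlated at 0.087, -0.056 and 0.055, and 3 of 6 arrays correlated best with their own number. That block leaves knockout 4 without a partner. Spearman's rho gave no ranking of like patterns, since 8 to 11 genes tied at 1. The 2 dim Insr probe sets were under the signal filter, so limma did not test them.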
